A study of Homo sapiens with 2 samples.

Results

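The genes described are 42 genes of mitosis and the G2/M transition, chosen by function: mitotic kinases, cyclins, spindle checkpoint proteins, kinetochore and spindle proteins, motors and cytokinesis proteins. Of the 42 symbols, 41 have a row of their own among the 24991 symbols of the table, none of them repeated. BUB1B appears only in a row joined with PAK6 and was not used as a member. RNA was sequenced from PLC/PRF/5, an established human hepatocellular carcinoma line, in 2 cultures that were both under hypoxia, 1 with NFX1 overexpression and 1 with an empty vector. NFX1 is a zinc-finger transcription factor, and the comparison asks which transcripts differ when it is overexpressed in hypoxic hepatoma cells. With 1 library per group there is no replicate check and no test, and every difference below is between these 2 libraries. The oxygen level, the time under hypoxia and the NFX1 construct are not given in the sources used here.

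Cells enter mitosis when cyclin B and CDK1 are activated by CDC25 phosphatases and by PLK1 and the Aurora kinases. The spindle checkpoint then holds anaphase back until every kinetochore is attached, and CDC20 with the anaphase-promoting complex ends mitosis by marking cyclin B and securin for destruction. Transcripts of these genes are made late in the cell cycle, under B-MYB (MYBL2), FOXM1 and the MuvB complex, and many hepatocellular carcinomas hold them at high levels. In bulk RNA, a smaller share of cells in G2 and M and less of these transcripts per cell cannot be told apart.

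Many promoters of this class carry the cell cycle homology region (CHR), a short element bound by MuvB complexes, downstream of CCAAT boxes bound by the trimeric factor NF-Y. Of the 42 members, 35 had an entry among the RefSeq promoter windows (GRCh38.p14; 250 bases before to 50 after the transcription start, the first listed start of each gene). Searched as TTTGAA or TTCGAA on both strands, the CHR was found in 24 of the 35 windows, or 68.6%, against 16.6% of 27305 windows in all and 10.5% of the 8444 windows of genes measured in these libraries. With every listed start counted, it was found for 26 of the 35 members. Other forms of the element were not searched. CCAAT on either strand was found in 26 of the 35, or 74.3%, against 35.7% of all windows. Both were found in 20 of the 35, or 57.1%, against 6.58% of all. TTTGAA on the gene's own strand within 40 bases before the start was found in 11 of the 35, or 31.4%, against 1.07% of all. A match is a description of the letters and not a binding site.

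The 120 bases that end at the base before the start are given for 8 members, to show the motifs beside the values that follow. Capitals mark TTTGAA and CCAAT or its reverse ATTGG. PLK1 (chr16:23678769-23678888, plus strand), CDC20 (chr1:43358861-43358980, plus) and CDCA8 (chr1:37692396-37692515, plus) carry both motifs and had higher values in the NFX1 library. CCNB2 (chr15:59105026-59105145, plus), PRC1 (chr15:90994536-90994655, minus) and HMMR (chr5:163460512-163460631, plus) carry both and had lower values. MYBL2 (chr20:43666994-43667113, plus) and AURKB (chr17:8210226-8210345, minus) have neither motif in these bases and had higher values.
PLK1: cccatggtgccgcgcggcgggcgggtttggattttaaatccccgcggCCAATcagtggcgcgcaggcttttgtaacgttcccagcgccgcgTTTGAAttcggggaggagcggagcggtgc
CDC20: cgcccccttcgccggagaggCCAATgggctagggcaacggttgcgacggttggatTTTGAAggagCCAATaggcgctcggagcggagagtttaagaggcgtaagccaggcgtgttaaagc
CDCA8: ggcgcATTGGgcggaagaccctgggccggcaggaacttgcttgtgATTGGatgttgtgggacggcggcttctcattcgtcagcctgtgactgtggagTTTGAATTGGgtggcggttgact
CCNB2: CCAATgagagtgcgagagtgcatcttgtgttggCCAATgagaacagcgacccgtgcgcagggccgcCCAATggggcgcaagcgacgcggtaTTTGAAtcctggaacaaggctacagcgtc
PRC1: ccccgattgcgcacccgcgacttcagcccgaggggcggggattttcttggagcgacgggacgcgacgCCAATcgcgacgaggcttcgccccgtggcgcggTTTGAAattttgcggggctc
HMMR: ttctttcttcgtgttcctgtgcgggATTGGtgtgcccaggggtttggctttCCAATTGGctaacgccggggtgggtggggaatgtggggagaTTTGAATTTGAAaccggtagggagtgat
MYBL2: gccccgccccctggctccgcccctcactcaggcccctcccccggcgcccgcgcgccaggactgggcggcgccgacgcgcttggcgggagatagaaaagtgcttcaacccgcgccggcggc
AURKB: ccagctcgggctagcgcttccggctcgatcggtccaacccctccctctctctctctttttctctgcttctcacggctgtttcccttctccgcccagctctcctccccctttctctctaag

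In PLK1, CCNB2, PRC1 and HMMR the TTTGAA nearest the start begins 29, 29, 20 and 22 bases before it, with the nearest CCAAT or ATTGG beginning at 73, 54, 53 and 66 bases before it. HMMR holds TTTGAA as 2 adjoining copies, and in CDCA8 the element overlaps an ATTGG. In PLK1, CCNB2, PRC1 and HMMR a TTTGAA lies between the start and the nearest CCAAT or ATTGG, while the number of boxes and their distance from it differ. CDC20 and CDCA8 have the other order. Their TTTGAA begins 65 and 23 bases before the start, and their nearest CCAAT or ATTGG 55 and 18 bases before it. The CHR was found for 23 measured members, whose changes ran from -0.14 to 0.44 with a median of -0.02 and 10 members higher. It was not found for 10, whose median was 0.16 with 8 higher. Of all genes measured, 52.0% were higher. After subtraction of a fitted trend described further on, the medians of members where these 2 forms were found and not found at the first start were 0.06 and 0.16. A split by TTTGAA on the gene's own strand within 40 bases before the start went the other way as deposited. The 10 members with it had a median of 0.08 with 6 higher, and the 23 without it 0.006 with 12 higher. After subtraction these medians were 0.07 and 0.11.

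**Figure D1:**
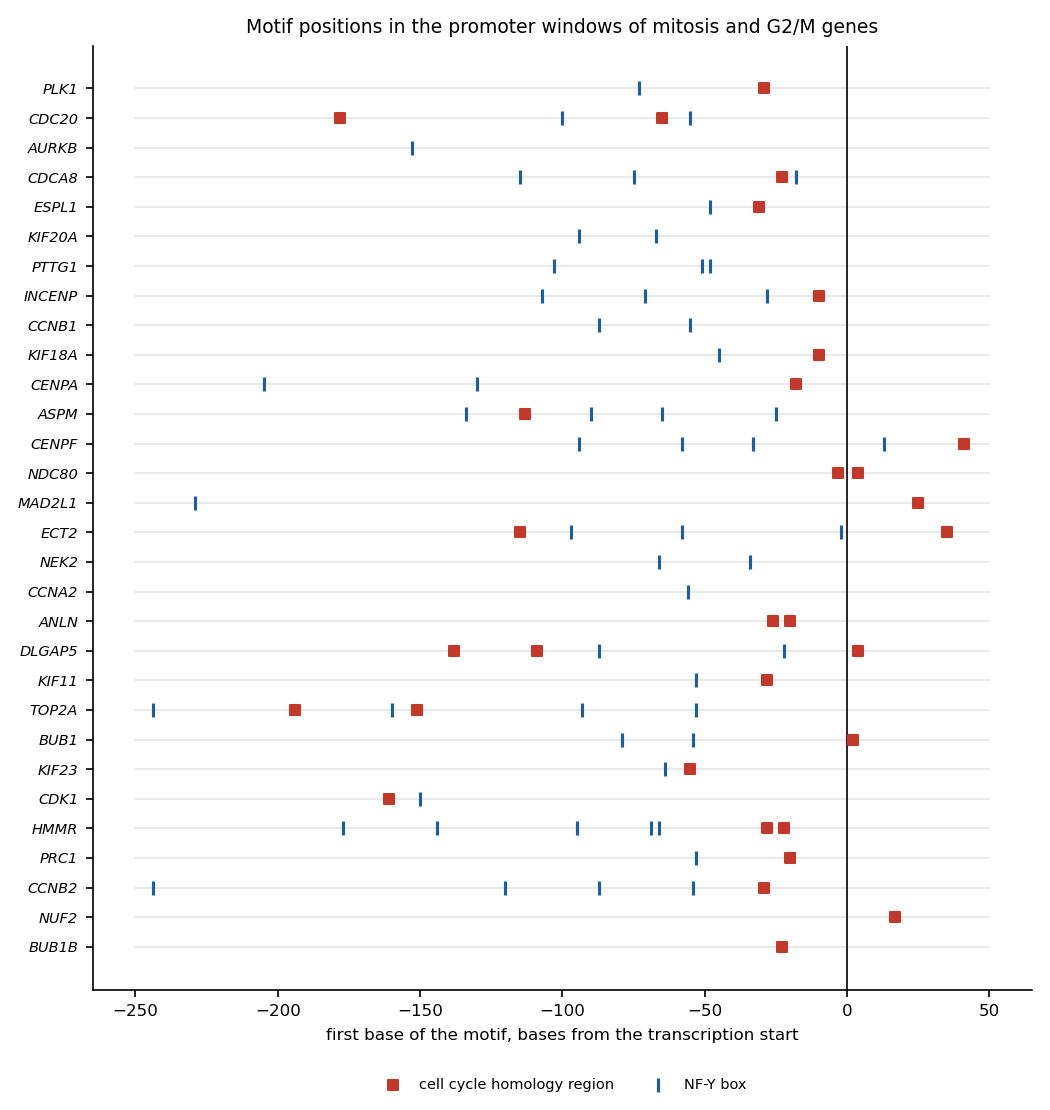
Positions of CHR motifs (red squares) and NF-Y boxes (blue ticks) in the promoter windows of 30 members with a match, as the first base of each motif in bases from the transcription start (vertical line), both strands. Genes run from the highest change at the top to the lowest, and BUB1B, which has no change of its own, is last; the CHR sits close before the start in genes at both ends of that order.

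The check of the label came first. NFX1 had 56.0 FPKM in the NFX1 library and 4.21 FPKM in the vector library. Of 12 hepatocyte lineage markers all 12 passed 1 FPKM in a library, among them SERPINA1 at 6807 FPKM in the NFX1 library and 5935 FPKM in the vector library. Of the 12, 11 were higher (52.0% of all genes), with a median change of 0.19. After the subtraction described further on, 8 of the 12 were higher (50.3% of all genes) and the median was 0.02. Albumin (ALB) had 1.06 FPKM in the NFX1 library and 0.776 FPKM in the vector library. None of 8 fibroblast and endothelial markers reached 1 FPKM, with CDH5 listed at 0 in both libraries. Of 6 blood markers LYZ alone did, at 47.9 FPKM in the NFX1 library and 49.2 FPKM in the vector library. PTPRC and CD3E were listed at 0 in both. Low values, which step by whole fragments, gave an estimated depth ratio of 1.15, NFX1 over vector. The depth itself was scaled on 6 olfactory receptor rows at 1 fragment in the vector library. It came to 26.3 M fragments with the vector and, through the ratio, 30.1 M with NFX1. Every fragment number and counting interval below rests on that scale. Each change is log2((NFX1 FPKM + 1)/(vector FPKM + 1)), so that it understates the ratio of low genes, and was computed where a library had at least 1 FPKM. That left 11182 genes, with 40 of the 41 members among them. The kinetochore motor CENPE, at 0.854 FPKM in the NFX1 library and 0.919 FPKM in the vector library, did not pass that limit.

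Over the 40 measured members the median change was 0.009, against 0.012 over all 11182 genes. A higher value in the NFX1 library was found for 22 of the 40 (52.0% of all genes) and a lower one for 18 (48.0%). A change of at least 0.32 on the log2 scale was found for 5 members, MYBL2, PLK1, CDC20, AURKB and UBE2C, with a background of 6.12% of all genes. No member was lower by as much, with a background of 2.30%. None was past 1.5-fold, which 0.420% of all genes were upwards and 0.215% downwards, or past 2-fold, with 0.107% and 0.0358%. The changes were unevenly placed over the roles: all 4 anaphase genes, all 4 subunits of the chromosomal passenger complex and both transcription factors were higher, while all 3 genes of chromosome structure and cytokinesis and 4 of 5 spindle-associated proteins were lower. Those directions as deposited did not all hold after subtraction of a trend on GC content, transcript length and expression, described further on. All 3 genes of chromosome structure and cytokinesis, 3 of 5 spindle-associated proteins and 3 of 4 passenger complex subunits were then higher. Levels of the 40 ran from 1.28 to 278 FPKM with a median of 14.8 FPKM in the NFX1 library, and from 1.16 to 286 FPKM with a median of 15.2 FPKM in the vector library.

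**Figure D2:**
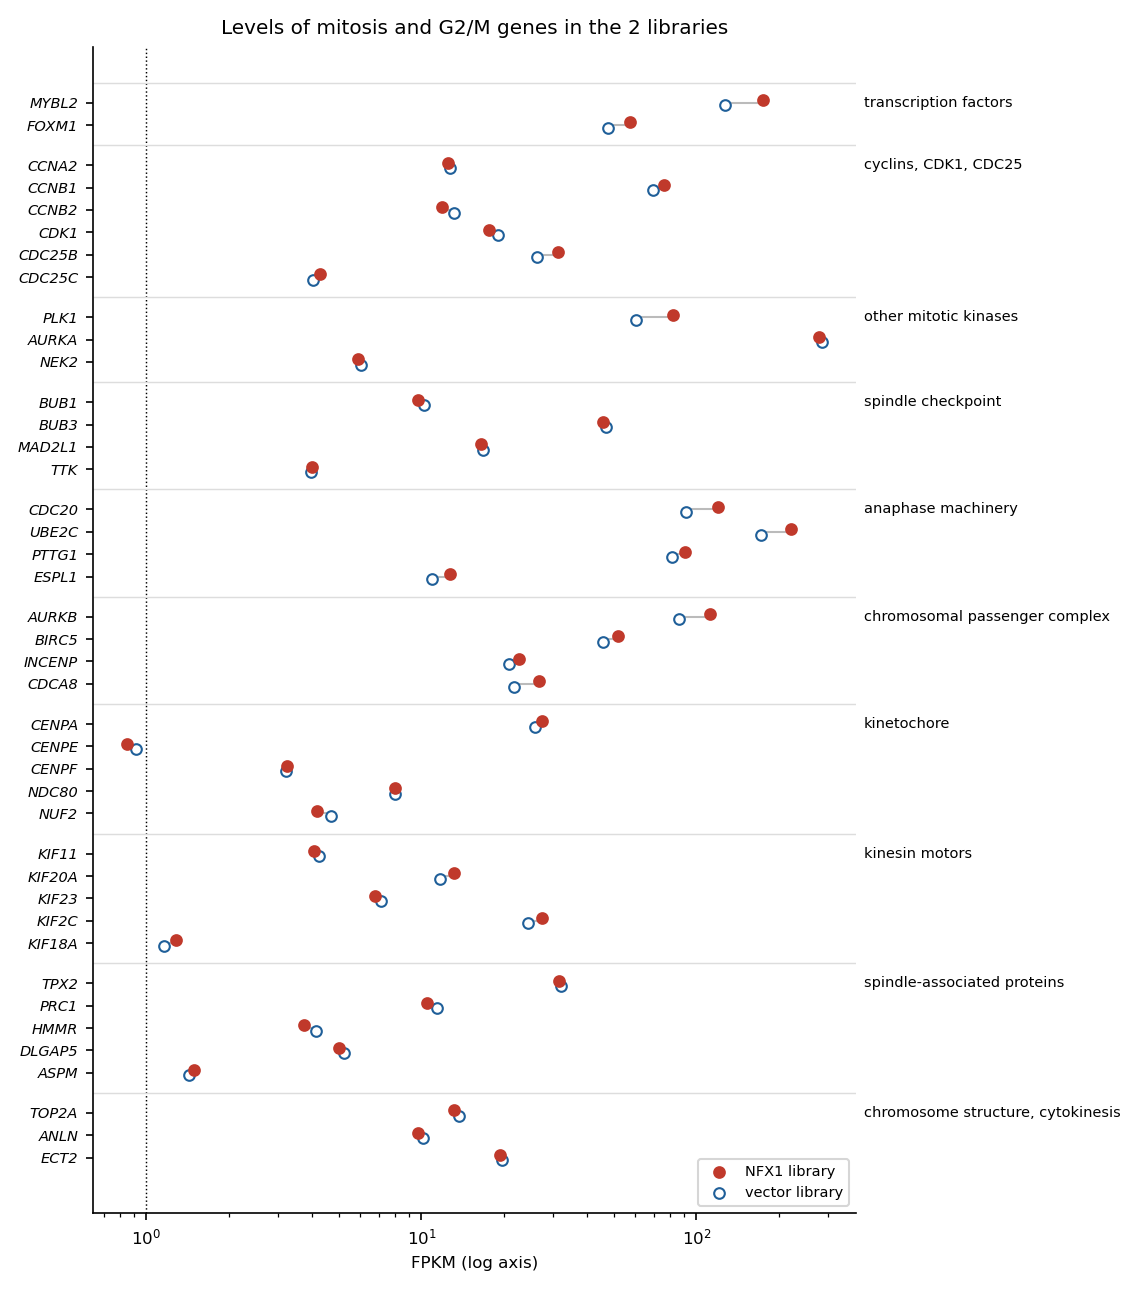
FPKM of the 41 members with a row, on a log axis, in the NFX1 library (filled red) and the vector library (open blue), grouped by role; the dotted line is 1 FPKM. The separations to the right are widest for MYBL2, PLK1, CDC20, AURKB and UBE2C, and the points of most kinetochore, checkpoint and spindle genes lie almost on each other.

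An exact (Clopper-Pearson) 95% interval was put on each FPKM ratio from estimated fragments. It covers counting error only, and neither the spread between cultures nor the trend with base composition. The interval lay above 1 for 13 of the 40 members (25.7% of genes with an interval) and below 1 for 1 member, AURKA (11.8%). For the other 26 members the interval held 1, so a difference was not detectable with these estimated fragments. Their number rests on the assumed transcript length as well as on depth. ASPM, with an assumed 6132 bases, had an estimated 276 fragments at 1.49 FPKM in the NFX1 library. CENPF, with an assumed 711.5 bases, had 70 at 3.24 FPKM there. Which intervals held 1 therefore depends in part on that length. In the authors' deposited table, all 41 members were tested and none was marked significant. Of all 14994 rows tested there, 18 were marked significant. The lowest p-value among the members in the authors' deposited table was 0.07585, for PLK1, and all members had a q-value of 0.999. Those p-values come from 1 library per group.

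**Figure D3:**
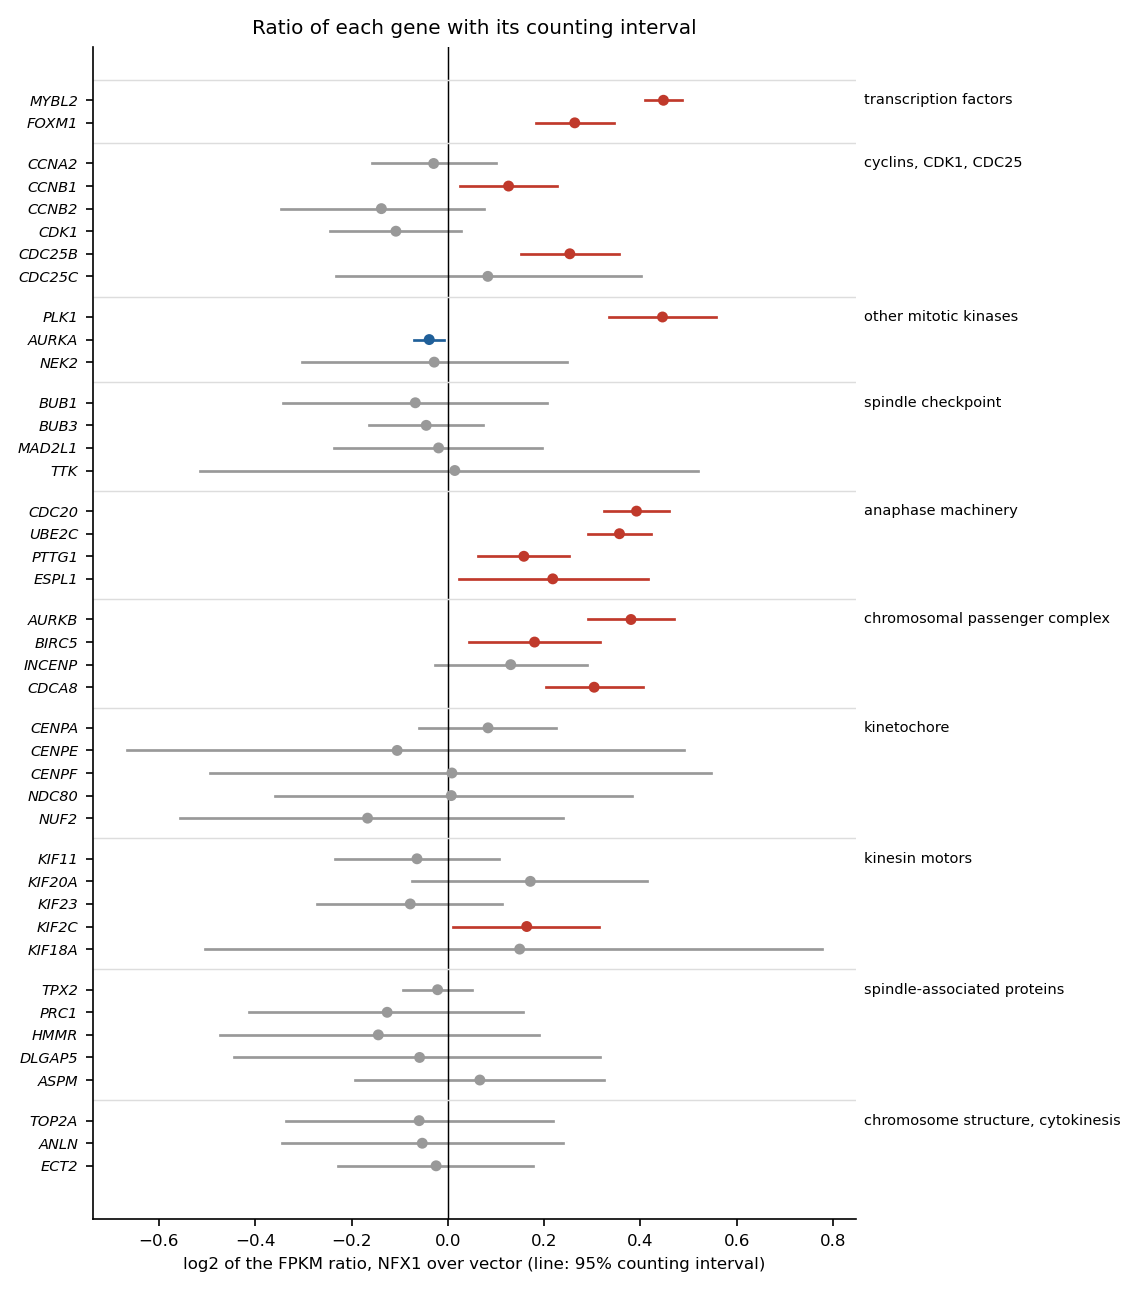
Log2 of the FPKM ratio, NFX1 over vector, for the 41 members with a row, with 95% counting intervals; red marks intervals above a ratio of 1, blue those below it and grey those that hold it. The intervals of all 4 anaphase genes lie above 1, and those of all spindle checkpoint genes hold it.

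The transcription factors of the late cell cycle were both higher. MYBL2 (hg19, chromosome 20, 42295659 to 42345136), which encodes B-MYB and works with MuvB, had 174 FPKM in the NFX1 library and 127 FPKM in the vector library, a ratio of 1.36 with a counting interval of 1.33 to 1.40. FOXM1, a forkhead factor that takes over in G2, had 57.2 FPKM in the NFX1 library and 47.7 FPKM in the vector library, a ratio of 1.20 (1.13 to 1.27). In both libraries MYBL2 stood well above FOXM1, at 3.04 times its FPKM with NFX1 and 2.67 times with the vector. The locus of FOXM1 in the table is shared with RHNO1, at 17.9 FPKM in the NFX1 library and 17.7 FPKM in the vector library. Whether the authors' counting used strand is not given in the sources used here, so reads from such overlapping genes may be split unevenly between them.

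Cyclins and the kinase they activate did not move together. CCNB1, the main mitotic cyclin, had 75.9 FPKM in the NFX1 library and 69.6 FPKM in the vector library, a ratio of 1.09 (1.02 to 1.17). Its Golgi-associated relative CCNB2 had 11.9 FPKM with NFX1 and 13.1 FPKM with the vector, a ratio of 0.909 (0.786 to 1.05). CCNB1 was thus the higher of the pair by 6.38 times in the NFX1 library and 5.31 times in the vector library. CCNA2, the cyclin of S phase and G2, had 12.5 FPKM in the NFX1 library and 12.8 FPKM in the vector library, in a locus that EXOSC9 shares. CDK1 itself had 17.7 FPKM with NFX1 and 19.0 FPKM with the vector, a ratio of 0.928 (0.844 to 1.02). Only the interval of CCNB1 among these 4 lay clear of 1.

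The CDC25 phosphatases remove inhibitory phosphates from CDK1. CDC25B, which starts the process at the centrosome, had 31.4 FPKM in the NFX1 library and 26.4 FPKM in the vector library, a ratio of 1.19 (1.11 to 1.28). CDC25C had 4.28 FPKM with NFX1 and 4.04 FPKM with the vector, with an interval of 0.851 to 1.32. FAM53C, which shares the CDC25C locus, was far more abundant, at 38.8 FPKM in the NFX1 library and 33.9 FPKM in the vector library, and the value of CDC25C is the less certain for it.

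PLK1 (chromosome 16, 23690143 to 23724821), which drives mitotic entry, centrosome maturation and cytokinesis, had 82.0 FPKM in the NFX1 library and 60.2 FPKM in the vector library, a ratio of 1.36 with an interval of 1.26 to 1.47. ERN2, which shares its locus, was listed at 0 in both libraries. AURKA (chromosome 20, 54944445 to 54967351), the Aurora kinase of centrosomes and spindle poles, had 278 FPKM with NFX1 and 286 FPKM with the vector, the highest level of any member in each library. Its ratio of 0.973 had an interval of 0.953 to 0.995, narrow because of its abundance. The centrosome kinase NEK2 had 5.90 FPKM in the NFX1 library and 6.01 FPKM in the vector library. These kinases therefore differed in direction, with PLK1 alone past 0.32.

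AURKB, the Aurora kinase of centromeres, belongs to the chromosomal passenger complex, which corrects faulty attachments and later directs cytokinesis. AURKB (chromosome 17, 8108049 to 8113944) had 112 FPKM in the NFX1 library and 86.3 FPKM in the vector library, a ratio of 1.302 (1.22 to 1.38). AURKA exceeded AURKB by 2.47 times in the NFX1 library and 3.31 times in the vector library. Survivin (BIRC5), which docks the complex on chromatin, had 51.8 FPKM with NFX1 and 45.7 FPKM with the vector, a ratio of 1.13 (1.03 to 1.245). Borealin (CDCA8) had 26.8 FPKM in the NFX1 library and 21.7 FPKM in the vector library, a ratio of 1.23 (1.15 to 1.32). The scaffold INCENP had 22.7 FPKM with NFX1 and 20.8 FPKM with the vector, and its interval of 0.982 to 1.22 held 1. All 4 subunits were thus higher, with a median change of 0.23.

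The anaphase genes were also higher without exception, with a median change of 0.28. CDC20 (chromosome 1, 43824626 to 43828873), the activator of the anaphase-promoting complex that the checkpoint restrains, had 120 FPKM in the NFX1 library and 91.6 FPKM in the vector library, a ratio of 1.31 (1.252 to 1.38). UBE2C (chromosome 20, 44441215 to 44445596), the ubiquitin-conjugating enzyme that starts chains on its substrates, had 220 FPKM with NFX1 and 172 FPKM with the vector, a ratio of 1.28 (1.22 to 1.34). These are among the most abundant members. Securin (PTTG1), which holds separase inactive, had 91.0 FPKM in the NFX1 library and 81.5 FPKM in the vector library, a ratio of 1.12 (1.04 to 1.19). Separase itself (ESPL1), the protease that opens cohesin, had 12.7 FPKM with NFX1 and 10.9 FPKM with the vector, a ratio of 1.16 (1.02 to 1.33). Securin and separase kept nearly the same proportion, 7.16 to 1 in the NFX1 library and 7.46 to 1 in the vector library. The near-identical copies PTTG2 and PTTG3P were listed at 0 in both libraries, and the AURKA pseudogene AURKAPS1 had 0.0941 FPKM with NFX1 and 0.0865 FPKM with the vector.

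The checkpoint proteins that act against CDC20 differed little. BUB3, a scaffold of the checkpoint complex that is also used outside mitosis, had 45.6 FPKM in the NFX1 library and 47.1 FPKM in the vector library. MAD2L1, which binds CDC20, had 16.5 FPKM with NFX1 and 16.7 FPKM with the vector. The kinase BUB1 had 9.74 FPKM in the NFX1 library and 10.2 FPKM in the vector library. TTK, the kinase that starts the signal, was the lowest at 4.02 FPKM with NFX1 and 3.98 FPKM with the vector. All 4 intervals held 1, and the widest, that of TTK, ran from 0.700 to 1.43. CDC20 exceeded BUB3 by 2.63 times in the NFX1 library and 1.94 times in the vector library. The joined row of BUB1B and PAK6 had 3.64 FPKM in the NFX1 library and 3.76 FPKM in the vector library.

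At the kinetochore, the centromeric histone CENPA had 27.5 FPKM in the NFX1 library and 25.99 FPKM in the vector library. The large coat protein CENPF had 3.24 FPKM with NFX1 and 3.22 FPKM with the vector. Both intervals held 1. NDC80 and NUF2 pair in the complex that grips microtubules. NDC80 had 8.04 FPKM in the NFX1 library and 8.005 FPKM in the vector library, and NUF2 had 4.18 FPKM with NFX1 and 4.69 FPKM with the vector, the lowest change of any member at -0.14. The interval of NUF2, 0.680 to 1.18, held 1.

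The kinesins gave mixed directions. KIF2C, which depolymerises microtubules at the centromere, had 27.4 FPKM in the NFX1 library and 24.4 FPKM in the vector library, a ratio of 1.12 (1.008 to 1.24). KIF20A, a motor of the central spindle, had 13.2 FPKM with NFX1 and 11.7 FPKM with the vector, and its locus is shared with CDC23 at 13.5 FPKM in the NFX1 library and 14.6 FPKM in the vector library. The other central spindle motor, KIF23, had 6.76 FPKM with NFX1 and 7.14 FPKM with the vector. KIF11, which pushes the spindle poles apart, had 4.07 FPKM in the NFX1 library and 4.255 FPKM in the vector library. KIF18A, which dampens chromosome movement, had 1.28 FPKM with NFX1 and 1.16 FPKM with the vector, the lowest level among measured members. KIF2C was the motor whose interval lay clear of 1.

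Spindle-associated proteins were mostly lower, and every one of their intervals held 1. TPX2, which activates AURKA on the spindle, had 31.8 FPKM in the NFX1 library and 32.2 FPKM in the vector library. PRC1, which bundles the central spindle, had 10.5 FPKM with NFX1 and 11.4 FPKM with the vector, and HMMR, a microtubule-binding hyaluronan receptor, had 3.74 FPKM with NFX1 and 4.13 FPKM with the vector. Both changes were -0.12. DLGAP5, which stabilises kinetochore fibres, had 5.02 FPKM in the NFX1 library and 5.22 FPKM in the vector library. ASPM, a spindle pole protein, was the exception at 1.49 FPKM with NFX1 and 1.43 FPKM with the vector.

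The genes of chromosome structure and cytokinesis were all lower as deposited, by less than 0.06, and all higher after subtraction of the trend, at 0.03 for TOP2A, 0.06 for ANLN and 0.05 for ECT2. TOP2A, the topoisomerase that untangles sister chromatids, had 13.2 FPKM in the NFX1 library and 13.7 FPKM in the vector library. The contractile ring scaffold ANLN had 9.76 FPKM with NFX1 and 10.1 FPKM with the vector. ECT2, which activates RhoA for the cleavage furrow, had 19.3 FPKM with NFX1 and 19.6 FPKM with the vector. All 3 intervals held 1.

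The split among the members followed base composition and abundance, which moved with each other. GC content, the median over a gene's GENCODE transcripts, ran from 35.6% for CDK1 to 60.2% for MYBL2. Across the 40 members it went with the change (Pearson r = 0.80, Spearman rho = 0.70), and r was 0.80 without the 2 members farthest from the median GC. Over 10984 genes the same correlation was 0.57 (rho = 0.62). Members are not independent, and GC went with the level too (r = 0.66 with log2 FPKM). Among the 15 members in the 3 highest GC quintiles of all genes, 14 were higher, with PRC1 the exception, against 73.3% of all genes there. Among the 25 members in the 2 lowest quintiles, 8 were higher, against 20.2% of all genes there. By level, 9 of the 11 members with a mean of at least 40 FPKM were higher, against 75.8% of all such genes, and 6 of the 14 under 10 FPKM, against 39.4%. Of the 15 members between 10 and 40 FPKM, 7 were higher, against 56.3% of such genes, with a median change of -0.02 against 0.03.

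Set beside genes of like base composition, the members were mostly on the higher side. Of the 40, 35 had a change above the median of their own GC quintile. In the lowest quintile the median was -0.05 over 17 members and -0.11 over 2197 genes, and in the second -0.02 over 8 members and -0.10 over 2197 genes. In the third it was 0.16 over 7 members and 0.00 over 2196 genes, and in the fourth 0.32 over 6 members and 0.14 over 2197 genes. The highest quintile held MYBL2 and INCENP alone. When a trend on GC content, transcript length and expression was fitted over all genes and subtracted, the median of the 40 members was 0.10, against 0.00 over 10984 genes. 32 members were then higher and 8 lower, where 50.3% of all genes were higher and 49.7% lower. That lean was not particular to the members, since several other cell-division lists given further on showed it too. No member was then higher by 0.32, with a background of 1.96%, and none lower by as much, with 1.88%. The subtracted changes of members ran from -0.05 for PRC1 to 0.29 for CDCA8. The 8 lower members were CCNB2, CDK1, AURKA, BUB3, INCENP, NUF2, PRC1 and HMMR.

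The trend therefore shrank the 5 members past 0.32 and turned the sign of 12 others. After subtraction MYBL2 stood at 0.24 (0.44 as deposited), PLK1 at 0.27 (0.44), CDC20 at 0.20 (0.39), AURKB at 0.22 (0.38) and UBE2C at 0.27 (0.35). Of the 12, 11 were lower as deposited and higher afterwards, among them CCNA2 at 0.10, KIF11 at 0.07 and TOP2A at 0.03. INCENP alone turned the other way, to -0.05 from a deposited change of 0.12. By role, the anaphase genes had a median of 0.20, the transcription factors 0.19, the passenger complex 0.17, the kinesins 0.14, the cyclins with CDK1 and CDC25 0.11, the kinetochore genes 0.10, the kinases PLK1, AURKA and NEK2 0.08, the checkpoint 0.06, chromosome structure and cytokinesis 0.05 and the spindle-associated proteins 0.04. The subtraction took out GC content, transcript length and expression together, and the part of each in these differences was not tested.

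**Figure D4:**
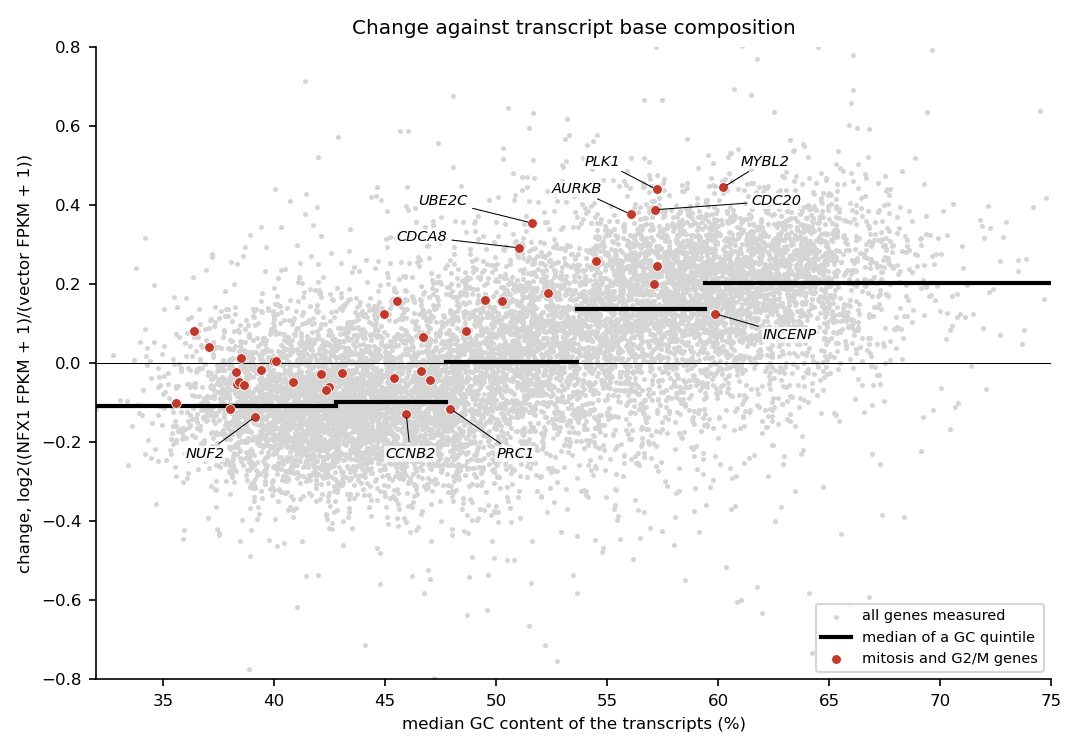
Change, log2((NFX1 FPKM + 1)/(vector FPKM + 1)), against the median GC content of the transcripts in percent, for all genes measured (grey) and the 40 measured members (red); black bars are the medians of GC quintiles, and genes outside the axis ranges are not drawn. Members lie mostly above the bar of their quintile, with INCENP, NUF2, CCNB2 and PRC1 among those below.

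Other cell-division genes, in lists chosen by function, were set beside the members. The shares of all genes measured to read beside each list's counts were 52.0% higher and 6.12% past 0.32 upwards. Anaphase-promoting complex subunits and partners had a median change of -0.04 over 16 genes, with 6 higher and 2 past 0.32. UBE2S, which extends the chains that UBE2C begins, had 319 FPKM in the NFX1 library and 246 FPKM in the vector library, and the subunits ANAPC15 and ANAPC2 were lower in abundance, at 95.8 and 31.1 FPKM with NFX1 and 75.2 and 25.3 FPKM with the vector. Their changes of 0.37, 0.34 and 0.29 were 0.13, 0.23 and 0.08 after subtraction. Condensin and cohesin genes had a median of -0.01 over 19, with 8 higher. The condensin subunit NCAPH2 stood apart at 37.8 FPKM with NFX1 and 27.5 FPKM with the vector, a change of 0.45, while the cohesin protector CDCA5 had 0.20 and NCAPD2 0.19. After subtraction these were 0.24, 0.02 and 0.13.

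Other kinetochore proteins had a median of 0.01 over 28 genes, with 14 higher and 14 lower. SPC24, which joins NDC80 and NUF2 in their complex, had 20.3 FPKM in the NFX1 library and 13.4 FPKM in the vector library. CENPM, a centromere protein, had 53.2 FPKM with NFX1 and 36.5 FPKM with the vector. Their changes of 0.57 and 0.53 were larger than that of any member. At 0.42 and 0.33 they were past 0.32 also after subtraction, where 1.96% of all genes were. CENPT had a change of 0.23, or 0.08 after subtraction. Other spindle, centrosome and cytokinesis proteins had a median of 0.05 over 32 genes, with 18 higher, led by TROAP at 42.9 FPKM with NFX1 and 30.96 FPKM with the vector, the chromokinesin KIF22 at 71.1 FPKM with NFX1 and 54.6 FPKM with the vector, and PSRC1 with a change of 0.34. After subtraction the changes of TROAP, KIF22 and PSRC1 were 0.28, 0.21 and 0.21.

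Regulators gave no common direction. MuvB, DREAM and Rb family genes had a median of -0.08 over 18, with 7 higher. The MuvB subunit LIN9 had 5.04 FPKM in the NFX1 library and 3.76 FPKM in the vector library, a change of 0.34 that was 0.47 after subtraction. E2F1 and E2F2, activators of S-phase genes, had changes of 0.31 and 0.25, or 0.12 and 0.23 after subtraction. Mitotic entry brakes and CDK inhibitors had a median of 0.03 over 15, with 9 higher. PKMYT1, which phosphorylates and inhibits CDK1, had 25.6 FPKM with NFX1 and 18.4 FPKM with the vector, a change of 0.46 that was 0.23 after subtraction. CDKN1B, the inhibitor p27, had 9.43 FPKM with NFX1 and 12.01 FPKM with the vector. Its change of -0.319, just short of the limit of 0.322, was -0.23 after subtraction. After subtraction 1 gene of this list was past the limit downwards (1.88% of all genes), GADD45A at -0.35, named here after its value was seen. It had 2.84 FPKM with NFX1 and 3.54 FPKM with the vector. SFN, which holds CDK1 in the cytoplasm, had a change of 0.28, or 0.03 after subtraction. Genes of G1/S and DNA replication, which act before the members do, had a median of 0.06 over 46, with 26 higher and 5 past 0.32, where 6.12% of all genes were. The changes of greatest size were those of the helicase subunit MCM7 at 0.36, CDK4 at 0.35 and the origin protein ORC1 at 0.33, which were 0.21, 0.15 and 0.36 after subtraction. ORC1 alone was then past 0.32 upwards (1.96% of all genes). Downwards there was 1 (1.88% of all genes), the G1 cyclin CCND1 at -0.45, named here after its value was seen.

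After subtraction of the trend, 5 of these 7 lists had medians above 0, at 0.09 for condensin and cohesin, 0.08 for the other kinetochore proteins, 0.07 for the other spindle proteins, 0.06 for the anaphase-promoting complex and 0.04 for replication. The regulators stood at 0.00 and the brakes and inhibitors at -0.03. The members' own median was 0.10, with 32 of 40 higher, against 50.3% of all genes. Higher after subtraction were also 22 of 28 other kinetochore genes, 25 of 32 other spindle genes and 14 of 19 condensin and cohesin genes. The same held for 33 of 46 replication genes and 11 of 16 of the anaphase-promoting complex list. Among the regulators 8 of 18 were higher, and among the brakes and inhibitors 7 of 15. No test separates the lists.

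**Figure D5:**
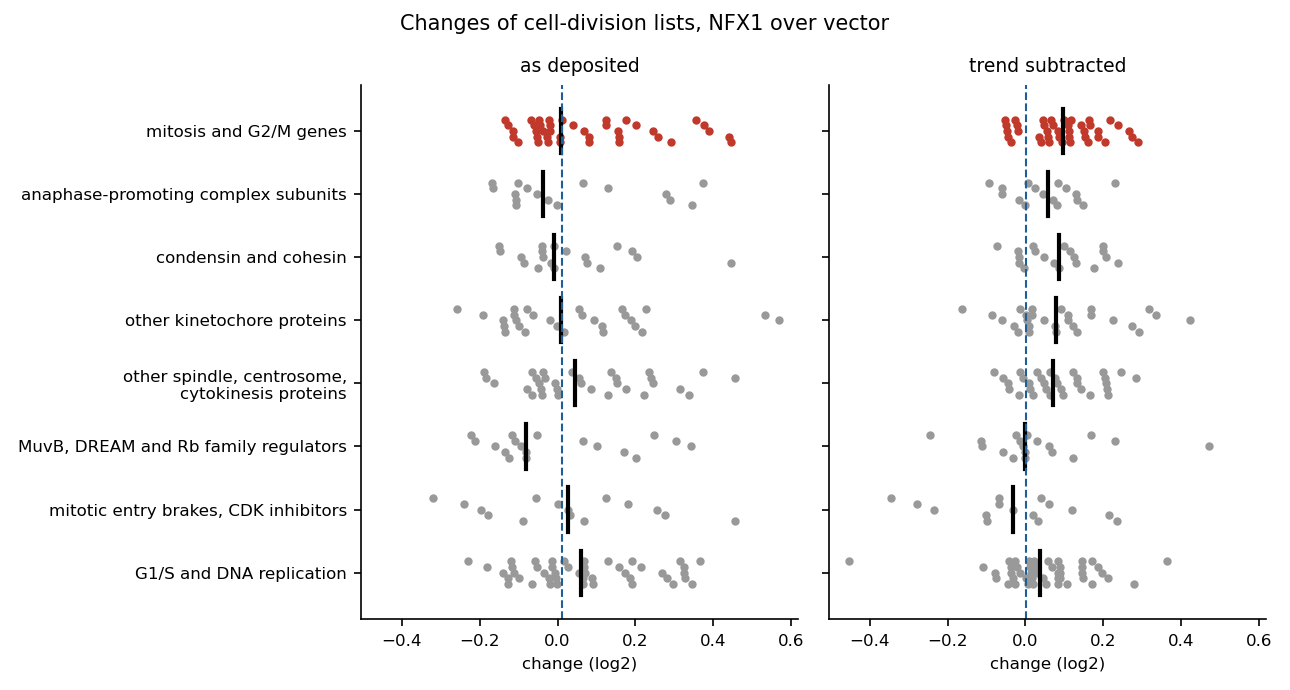
Changes (log2, NFX1 over vector) of measured genes in the members' list (red) and 7 other cell-division lists (grey), as deposited on the left and after subtraction of the trend on the right; black bars are list medians and the dashed line is the median of all genes. The members' median lies on the dashed line as deposited (0.01) and right of it after subtraction (0.10).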

How the data were processed

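RNA-seq of 1 NFX1-overexpressing and 1 empty-vector culture was used, grouped by the genotype labels. The submitters' processing notes name hg19 as the build, Cufflinks 2.2.1 and TopHat2 2.1.0; settings and annotation are not given in the sources used here. Per the file headers, the authors deposited FPKM per library, p-values and q-values, a test score and a log2 fold change. FPKM depends on the assumed transcript length.

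Rows with no symbol (1651) or several symbols (492) were left out of the 28658, and the highest row of a repeated symbol was used. The depth ratio was estimated from 1968 low rows, of which 62.0% had FPKM ratios within 0.005 (log2) of whole-fragment ratios. The depth of the vector library was estimated from 6 olfactory receptor rows at 1 fragment. Fragments used the median GENCODE v29 transcript length; too short a length widens an interval. GC content was matched by symbol or synonym for 98.2% of genes. The trend, cubic splines fitted to genes within 2-fold, took 40.3% of the variance across genes. Steps were run on simulated libraries drawn with the same assumed lengths and estimated depths. Such a run cannot show errors in the lengths or depths, nor the spread between cultures.

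Members, lists and the limit of 0.32 on the log2 scale were chosen with earlier results of these data known. All members are named; in each other list, up to 3 genes with the largest change among those with at least 5 FPKM in a library were named. Promoters came from RefSeq (GRCh38.p14), without coordinates of the files' build, and the 8 printed were chosen after their values were seen. Tools were scikit-learn 1.9.0, scipy 1.17.1, matplotlib 3.10.9, pandas 2.3.3, numpy 2.4.6 and Python 3.11.15. No test was made, since p-values need more than 1 library per group.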

Additional observations from a re-analysis of the deposited data

How the results depend on the processing

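No paired analysis was possible because each group has 1 library and the labels give no replicate numbers; for the same reason no replicate could be left out. The count of 5 members higher by at least 0.32 was the same with pseudocounts of 0.1 and 5, with other filters, with summed rows and with the median or trimmed mean of all changes at 0, and was 4 without the 9 members in loci shared with another gene. It was 2 with upper quartiles made equal, 0 at limits of 1.5 and 2-fold, and 0 after subtraction of the trend, also with GC content and length of the longest coding transcript. That form of the trend and the shared loci were added after seeing the data. The share of all genes higher by at least 0.32 moved with the setting, so an unchanged 5 is not the same result throughout. That share was 6.12% as deposited, larger with a pseudocount of 0.1, and 2.88% with a pseudocount of 5. With upper quartiles made equal it was 2.76%, beside 2 of 40 members, and after subtraction of the trend 1.96%. Upwards, 0.420% of all genes passed 1.5-fold and 0.107% passed 2-fold. With upper quartiles made equal, the median was -0.051 over all genes, -0.048 over the members, -0.10 for the checkpoint, -0.087 for PLK1, AURKA and NEK2, -0.11 for chromosome structure and cytokinesis, -0.11 for the anaphase-promoting complex, -0.078 for condensin and cohesin and -0.14 for the MuvB list. With a trimmed mean of 0, PLK1, AURKA and NEK2 stood at -0.039 and chromosome structure and cytokinesis at -0.064 (-0.060 with a median of 0). The members with another sign numbered 3, 3 and 4 with the median, the trimmed mean and the upper quartiles, and 12 and 13 with the 2 forms of the trend. Under those 2 forms 32 and 33 of 40 members were higher, against 50.3% and 50.1% of all genes. Subtraction of the trend gave 0.19 for the transcription factors, 0.055 for the checkpoint, 0.10 for the kinetochore, 0.040 for the spindle-associated proteins and 0.048 for chromosome structure and cytokinesis. With the longest coding transcript these were 0.18, 0.069, 0.0835, 0.024 and 0.0625, and the anaphase genes were at 0.15. The cause of these shifts was not tested. Of the 40 members, 9 left their counting interval after subtraction of the trend and 4 with upper quartiles made equal. Depth limits the lowest members, down to an estimated 39 fragments for KIF18A in the vector library.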

Other observations

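The 3 members with the highest levels, AURKA, UBE2C and MYBL2, all lie on chromosome 20 (hg19, 42295659 to 54967351), a stretch chosen after these values were seen. The other 63 genes measured in it had a median of 16.7 FPKM in the NFX1 library and 16.3 FPKM in the vector library, against 10.2 FPKM over all genes measured in each library. Their median change was 0.05, with 38 of the 63 higher, against 0.012 and 52.0% over all genes measured. Of all genes between 10 and 40 FPKM, 56.3% were higher. CDC25B and TPX2 are the other 2 members on that chromosome, which holds 5 in all.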
